A study of Caenorhabditis elegans with 2 samples.

Results

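The 10 genes described here work in DNA repair and in the DNA damage checkpoint of Caenorhabditis elegans. They are rad-51, brc-2, brc-1 and brd-1 of homologous recombination, the checkpoint kinases atl-1, atm-1 and chk-1, the p53 homologue cep-1, and the mismatch repair genes msh-2 and msh-6. They were picked by name, not by a measured value, from the 19973 protein-coding genes that the Ensembl release 115 annotation places on the nuclear chromosomes, and all 10 names were found there. Earlier results of these data were known when the genes were picked, so the shares below are descriptions without a test. The question put to the data was whether MADF-6 had chromatin immunoprecipitation (ChIP-seq) peaks at the 5′ ends of these genes. MADF domains are Myb-like folds that bind DNA. The animals were strain RW12237 (allele st12237), in which a CRISPR insertion at madf-6 itself adds TY1, EGFP and 3xFLAG to the protein. Both replicates were whole young adults collected at 63 h after synchronisation as starved L1 larvae that followed bleaching, and the description gives an antibody against GFP for the precipitation, although the antibody field of the labels reads madf-6. There was 1 group with 2 biological replicates, both from this single strain, and no untagged strain was analysed here. In whole animals a peak cannot be assigned to the germ line or to any somatic tissue.

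When both strands of DNA break, the broken ends are trimmed to single strands on which RAD-51 assembles, helped by BRC-2, and the filament then finds and copies an intact template. BRC-1 and BRD-1 form a ubiquitin ligase that acts in the same pathway. ATM-1 and ATL-1 sense breaks and exposed single strands, CHK-1 carries the ATL-1 signal to the cell cycle, and CEP-1 turns on genes for the death of damaged germ cells. MSH-2 and MSH-6 pair to recognise mismatched bases left by replication. In the worm these pathways are known best from the germ line, where meiotic breaks are made and where damaged nuclei arrest or die.

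Conservative peaks stood upstream of the recombinase gene rad-51, the kinase genes atm-1 and chk-1, the p53 gene cep-1 and the mismatch gene msh-2. A gene was counted when the summit of a peak, its deposited point of highest signal, lay within 1000 bp of the annotated 5′ end, on either side. In the conservative list, 1 of 2 thresholded lists that combine the replicates, 5 of the 10 genes were counted, against 15.8% of all protein-coding genes. The same 5 genes were counted within 500 bp, against 12.3% of all genes. Within 250 bp cep-1 alone was counted, 1 of 10 genes against 8.14% of all genes, which is near the background. Among the 2192 conservative peaks of highest signal, atm-1, cep-1 and msh-2 were counted, 3 of 10 against 10.3%. Summits of these 5 lay 141 to 461 bp upstream, and none lay inside the gene. In the less strict combined list brc-1, brd-1 and atl-1 joined them, which made 8 of 10 genes against 17.3% of all genes. For brc-2 and msh-6 no thresholded list held a summit within reach.

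**Figure D1:**
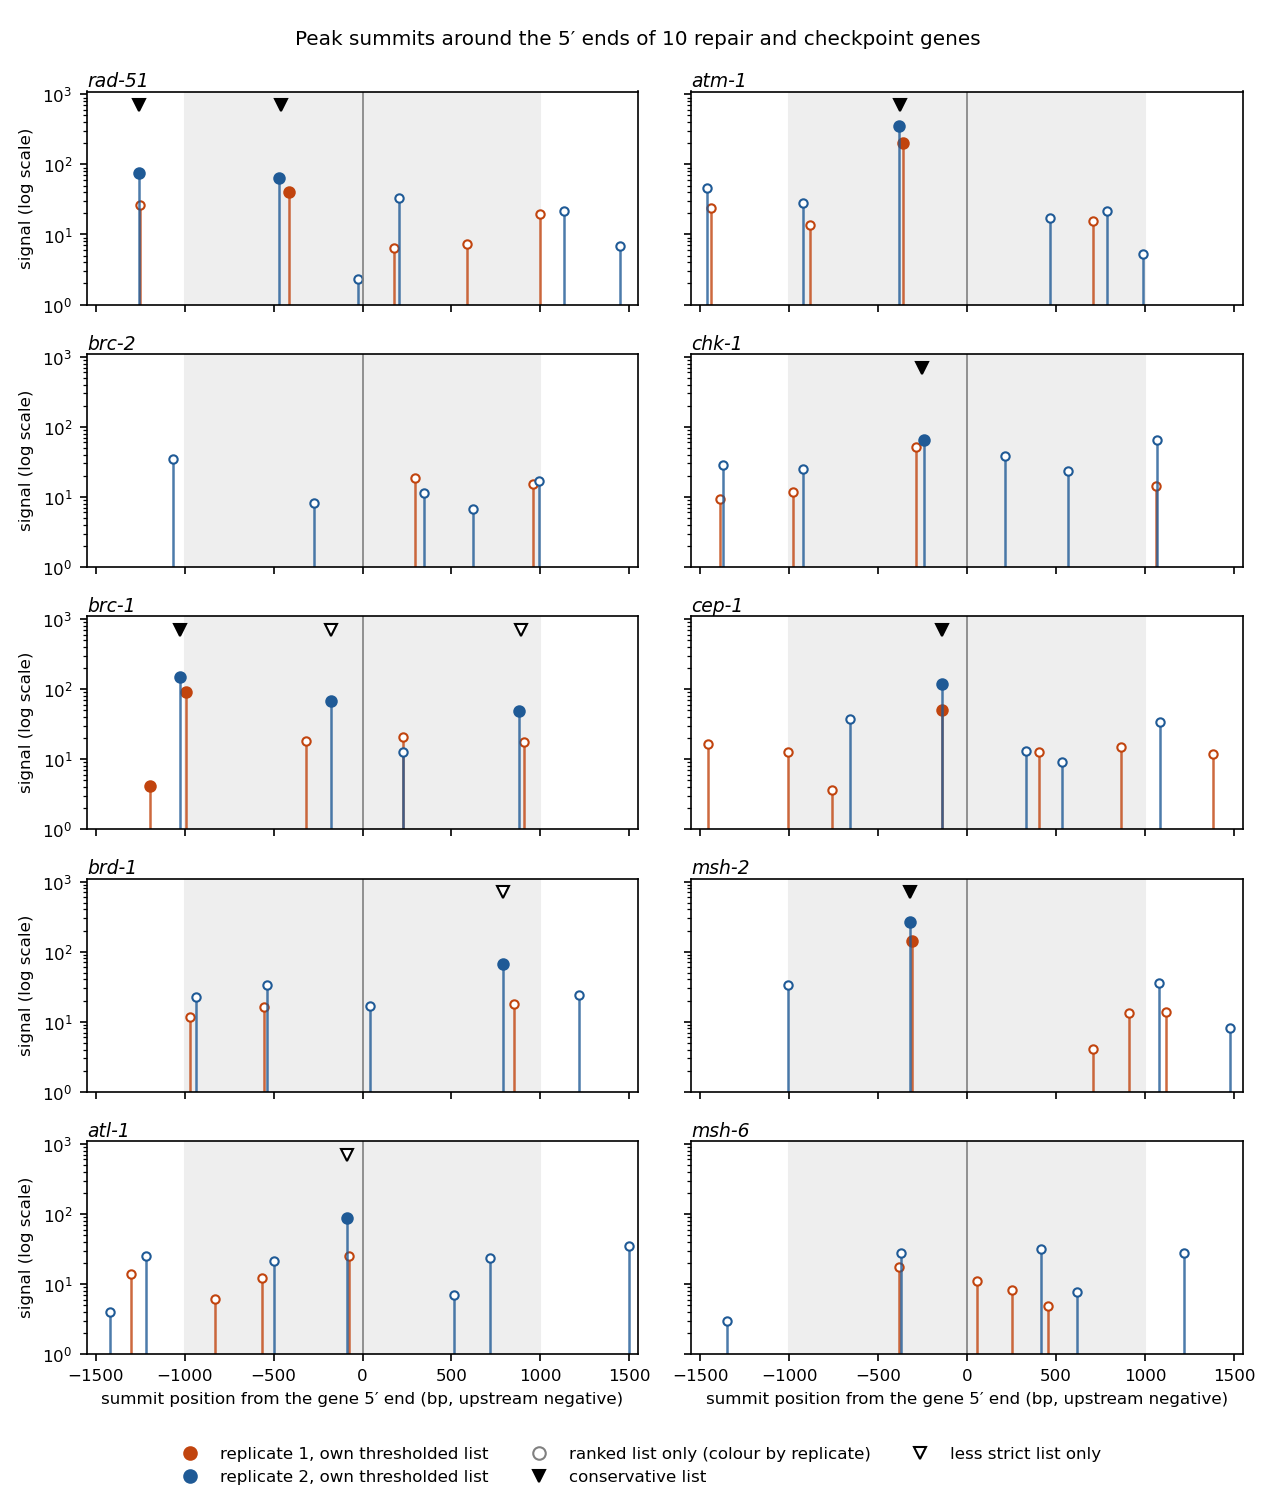
Summits within 1500 bp of each 5′ end (x axis, bp, upstream negative) against the deposited signal (y axis, log scale) in replicate 1 (red) and replicate 2 (blue); filled circles are in that replicate's own thresholded list, open circles in its ranked list alone, triangles mark the combined lists at an arbitrary height, and grey spans 1000 bp to each side. Tall circles of both colours stand together at atm-1, msh-2, cep-1, rad-51 and, with an open circle for replicate 1, at chk-1. The same holds at the distal site of brc-1, just outside the grey span in replicate 2. By contrast, brc-2 and msh-6 have open circles alone.

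Each peak carries a signal, the authors' own value of its strength, and a score, their scaled measure of reproducibility, which is at least 830 in the thresholded lists and at most 1000. A member's peak has the same signal in every combined list that holds it, and in both lists of a replicate. Values of replicate 1, of replicate 2 and of the combined lists come from separate calls, so they are given side by side, with ranks within a list. At rad-51 (WBGene00004297, chromosome IV, 10281634 to 10284244, minus strand), the central recombinase, the conservative summit lay 461 bp upstream with a signal of 113.0 and a score of 1000. Its rank was 2815 of 4384, in the weaker part of the list, whose median signal was 148.7. Replicate 1 gave 40.7 at rank 2494 of its 2803 thresholded peaks and replicate 2 gave 65.0 at rank 3428 of 4519, both with a score of 960. So the rad-51 peak was thresholded in both replicates and was weak in both, and the summits stood 60 bp apart. A second conservative peak of nearly equal signal, 112.1, lay outside the window at 1256 bp upstream. Replicate 2 held it in its own list at 76.2, whereas replicate 1 held it in the ranked list alone, at 26.3 with a score of 75. Both are intergenic, in the 2711 bp that separate rad-51 from the divergent gene ebax-1, and no other protein-coding 5′ end lay within 1000 bp of either. The reference sequences under both summits, 201 bases centred on each and read on the rad-51 strand (chrIV:10284605-10284805 and chrIV:10285400-10285600, minus strand, WBcel235), are shown because the pair differs in base composition and in the words it shares. Capitals mark the words searched for, described with the other genes, on either strand.
rad-51, 461 bp upstream: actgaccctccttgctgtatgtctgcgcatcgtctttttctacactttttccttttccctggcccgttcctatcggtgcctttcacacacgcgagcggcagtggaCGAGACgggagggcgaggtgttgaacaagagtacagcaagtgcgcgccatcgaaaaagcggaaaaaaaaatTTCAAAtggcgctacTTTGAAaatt
rad-51, 1256 bp upstream: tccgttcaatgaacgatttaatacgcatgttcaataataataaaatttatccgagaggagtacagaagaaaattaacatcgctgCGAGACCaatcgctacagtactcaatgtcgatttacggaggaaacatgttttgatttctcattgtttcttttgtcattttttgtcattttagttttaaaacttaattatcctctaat
Both windows hold CGAGAC, while TTTGAA, in both orientations, is in the nearer window alone. Bases G and C make up 49.8% of the nearer window and 31.3% of the farther one.

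The gene brc-1 (WBGene00000264, chromosome III, 3853102 to 3862968, minus strand), which encodes the BRCA1 homologue, had its strongest peak at the border of the window. That peak was 147 bp wide, with a summit 1028 bp upstream, a conservative signal of 245.6 and rank 1248 of 4384. Replicate 1 gave 90.3 with the summit 995 bp upstream, and replicate 2 gave 150.9 with the summit 1028 bp upstream. The peak was thus present in both replicates, and 33 bp decided on which side of the 1000 bp limit it fell. Its summit was nearer to the 5′ end of the divergent gene acs-19, at 493 bp. Counting any base of a conservative peak within 1000 bp, in place of the summit, added brc-1 and gave 6 of 10 genes, against 16.5% of all genes. Replicate 1 also listed a summit 1197 bp upstream with a signal of 4.13 and the full score of 1000. That call overlapped the 90.3 call of replicate 1, which had the same score. Nearer to brc-1 itself, summits 180 bp upstream and 893 bp downstream, the latter in an intron of brc-1, were in the less strict list at 83.8 and 73.5. These summits had scores of 220 and 276 in the ranked list behind the conservative one. Replicate 2 thresholded both, at 67.8 and 49.2. Replicate 1 had nearby calls of 18.2 and 17.4 in its ranked list alone, the former 139 bp from the summit of replicate 2. The sequence under the distal summit (chrIII:3863896-3864096) is given beside the one at 180 bp (chrIII:3863048-3863248), both on the brc-1 strand of WBcel235, because the stronger peak held none of the words searched for.
brc-1, 1028 bp upstream: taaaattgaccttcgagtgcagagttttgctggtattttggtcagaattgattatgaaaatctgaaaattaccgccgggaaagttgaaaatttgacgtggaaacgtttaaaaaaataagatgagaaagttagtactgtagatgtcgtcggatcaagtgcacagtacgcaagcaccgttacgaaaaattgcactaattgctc
brc-1, 180 bp upstream: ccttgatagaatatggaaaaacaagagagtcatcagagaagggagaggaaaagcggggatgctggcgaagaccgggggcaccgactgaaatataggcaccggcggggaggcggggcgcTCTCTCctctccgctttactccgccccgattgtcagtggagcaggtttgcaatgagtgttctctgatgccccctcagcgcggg
The window at 180 bp holds GAGAGA, read here as its reverse complement, and at 58.2% has the highest G and C content of all 11 member windows.

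The partner gene brd-1 (WBGene00000265, chromosome III, 6885207 to 6889504, minus strand) had its thresholded summit within the gene, 792 bp downstream of the 5′ end in an intron. The less strict list gave it 94.2 at rank 3444 of 5060, and the ranked list from which the conservative one was taken scored it 190. Replicate 2 gave 66.0 with a score of 1000, and replicate 1 gave 17.8 with a score of 86, in its ranked list alone. Thresholding of this peak therefore came from replicate 2 and the less strict combination. Its summit lay 31 bp from the 5′ end of 1 tRNA gene and 94 bp from that of another, both inside brd-1. Genes for tRNA exist in many near-identical copies, and the sources used here do not say how reads that match several copies were placed. The window (chrIII:6888612-6888812, minus strand, WBcel235) is shown with the 77 bases of these 2 tRNA genes (6888610 to 6888681, minus strand, and 6888806 to 6888877, plus strand) in capitals.
brd-1, 792 bp downstream: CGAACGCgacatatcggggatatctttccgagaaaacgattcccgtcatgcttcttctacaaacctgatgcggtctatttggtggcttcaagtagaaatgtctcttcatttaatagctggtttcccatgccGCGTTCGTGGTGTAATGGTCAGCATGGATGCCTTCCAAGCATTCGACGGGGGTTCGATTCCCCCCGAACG
The summit of the combined list and of replicate 2 lies in the lower-case stretch between the tRNA genes, while that of replicate 1, 854 bp downstream of the brd-1 5′ end, lies inside the tRNA gene on the minus strand. None of the words searched for is in the window.

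BRC-2 is the BRCA2 homologue that loads RAD-51. Among the recombination members its gene had the weakest strongest call in the combined ranked list and in replicate 2. In replicate 1 brd-1 was lower, at 17.8 against 18.8. At brc-2 (WBGene00020316, chromosome III, 6900568 to 6903106, minus strand) the strongest combined ranked call within 1000 bp was 29.3, 951 bp downstream, with a score of 117. The strongest call of replicate 1 was 18.8, 295 bp downstream, at rank 13846 of 57453, and that of replicate 2 was 991 bp downstream at rank 39817 of 65847. Each replicate also had a weaker call near the other's strongest, 15.4 at 957 bp in replicate 1 and 11.2 at 343 bp in replicate 2. Both places were thus called in both replicates, in the opposite order of strength. A ranked call of 40.1 stood 1064 bp upstream, in an intron of the divergent gene T07E3.3.

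Among the kinases, atl-1 (WBGene00000226, chromosome V, 9634849 to 9645595, minus strand), the ATR homologue, stood closest to the threshold. Its summit 88 bp upstream had a signal of 122.3, close to that of the chk-1 peak, and a score of 787 in the ranked list behind the conservative one, where 830 was needed. The less strict list held the same summit at rank 2637 of 5060 with a score of 1000. Replicate 2 thresholded it at 88.8, rank 2520 of 4519, and replicate 1 ranked it at 24.8 with a score of 212, 10 bp away. The place was the same in both replicates, but its reproducibility score passed in replicate 2 alone. Only 264 bp separate atl-1 from the divergent hcp-2, whose 5′ end is 176 bp from the summit. At chk-1 (WBGene00000498, chromosome V, 3757153 to 3759469, minus strand), which encodes the kinase below ATL-1, the conservative summit lay 252 bp upstream at 124.0, rank 2567 of 4384, with a score of 1000. Replicate 2 thresholded it at 65.5 with a score of 934. Replicate 1 held it at 52.0, rank 2101 of its 57453 ranked calls, with a score of 60, and so not in its own thresholded list. In that same list rad-51 had a lower signal, 40.7 at rank 2866, and a score of 960. Replicate 1 therefore left out of its thresholded list a chk-1 call with a higher signal, and a lower score, than the rad-51 call it kept. No other protein-coding 5′ end lay within 1000 bp of the chk-1 summit, and oac-55 begins 1670 bp away from chk-1. The windows of these kinase genes (chrV:9645583-9645783 and chrV:3759621-3759821, minus strand, WBcel235) are shown because each holds TTCGAA, in capitals with the other words found.
atl-1, 88 bp upstream: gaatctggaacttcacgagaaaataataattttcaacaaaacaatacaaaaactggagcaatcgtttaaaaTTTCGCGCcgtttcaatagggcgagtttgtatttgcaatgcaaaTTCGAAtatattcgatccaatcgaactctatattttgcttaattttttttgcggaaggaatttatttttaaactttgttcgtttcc
chk-1, 252 bp upstream: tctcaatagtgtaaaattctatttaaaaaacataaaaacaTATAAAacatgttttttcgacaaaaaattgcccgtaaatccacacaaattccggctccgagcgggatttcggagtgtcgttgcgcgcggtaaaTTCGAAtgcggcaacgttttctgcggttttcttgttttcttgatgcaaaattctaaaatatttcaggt
In the atl-1 window the second word is GCGCGAAA, read here as its reverse complement TTTCGCGC. The chk-1 window also holds TATAAA.

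ATM-1, the kinase that answers to double-strand breaks, belongs to the gene with the strongest peak of the 10. The peak of atm-1 was 213 bp wide, had its summit 375 bp upstream and reached 548.4, rank 440 of 4384. A signal of 549.2 marked the start of the top 10% of the list, so atm-1 stood just outside it. Replicate 1 gave 200.7 at rank 358 of 2803 and replicate 2 gave 349.6 at rank 493 of 4519, with summits 23 bp apart. Both replicates thus placed the peak among their stronger ones and at the same position. The gene atm-1 (WBGene00000227) spans 183364 to 208384 on the plus strand of chromosome I. It is divergent from F56C11.3, across a gap of 592 bp, and the summit lay nearer to that gene, at 217 bp.

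CEP-1 is the worm's homologue of p53. The cep-1 peak (gene WBGene00000467, chromosome I, 8324286 to 8328859, plus strand) had its summit 141 bp upstream, the nearest of the 5, with a conservative signal of 165.1 at rank 1969 of 4384. Replicate 1 gave 50.6 at rank 2086 of 2803 and replicate 2 gave 117.4 at rank 1913 of 4519. Both replicates thresholded it with a score of 1000 and placed the summit within 1 bp of each other. The divergent neighbour F52B5.3 has its 5′ end 158 bp from the same summit, so the peak lies nearly midway in the 299 bp between the genes.

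MSH-2 is the common subunit of the MutS complexes that recognise mismatches. At msh-2 (WBGene00003418, chromosome I, 3694296 to 3697551, minus strand) a peak 198 bp wide had its summit 319 bp upstream at 410.1, rank 661 of 4384. Replicate 1 gave 140.1 at rank 594 of 2803 and replicate 2 gave 266.8 at rank 715 of 4519, with summits 8 bp apart. In both replicates and in the conservative list it was second to atm-1 among the members' peaks. The peak is shared with another checkpoint gene, since hus-1, which encodes a part of the clamp that is loaded at damage, is divergent from msh-2 and begins 232 bp from the summit. A piRNA gene, 21ur-13866, begins 254 bp from it on the other side. MSH-6, the partner of MSH-2, had no such peak. At msh-6 (WBGene00003422, chromosome I, 3449326 to 3462174, plus strand) the combined ranked list reached 50.2 in an intron 393 bp downstream, with a score of 78, and 44.1 in a coding exon of nefr-1 427 bp upstream, with a score of 315. Replicate 1 reached 17.6, 384 bp upstream, and replicate 2 reached 32.0, 417 bp downstream. Hence the strongest call of each replicate lay on a different side of the msh-6 5′ end, although replicate 2 also had a call of 27.9 within 10 bp of that of replicate 1.

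The 2 replicates can be compared across the 10 genes by their own lists. Replicate 1 thresholded a summit within 1000 bp of 5 genes, against 11.4% of all genes, and replicate 2 of 8 genes, against 16.5%. Both did so at rad-51, brc-1, atm-1, cep-1 and msh-2, which is 5 of 10 against 10.7% of all genes. At brc-1 the replicates were counted through different peaks, the distal one in replicate 1 and the nearer ones in replicate 2. Of the 5 conservative calls chk-1 was the exception, thresholded in replicate 2 alone. Replicate 2 had the longer thresholded list, and the 3 genes it held beyond those of replicate 1 were brd-1, atl-1 and chk-1. Summit positions of the replicates differed by 1 to 60 bp at the 5 conservative peaks within reach, where the median over the 4298 conservative peaks matched in both ranked lists was 20 bp and the quartiles were 7 and 44 bp. At rad-51 the gap of 60 bp was above that upper quartile. In the ranked lists, which were made before any threshold, all 10 genes had a call within 1000 bp, but so did 51.4% of all genes in the combined list, 56.1% in replicate 1 and 54.2% in replicate 2.

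Because a ranked call near a gene is common, each gene was also placed among all genes by its strongest ranked signal within 1000 bp. Genes with no ranked call within reach were kept in, as lower than any gene with one. In the combined ranked list atm-1 was above 97.4% of protein-coding genes, msh-2 above 96.2% and cep-1 above 90.4%. These were also high in each replicate, between 90.2% and 97.9%. The genes chk-1, atl-1, rad-51, brd-1 and brc-1 followed, above 88.2%, 88.1%, 87.4%, 85.5% and 84.2% of genes, so atl-1, with no conservative peak, stood above rad-51, which has one. With msh-6 at 73.5% and brc-2 at 58.1%, the order ended in the genes that no thresholded list held. Above brc-2 stood 8360 genes, of the 10266 with a combined ranked call, so it was low among genes with a call. The replicates placed brd-1 differently, at 68.1% in replicate 1 and 85.7% in replicate 2, and likewise atl-1, at 79.2% and 88.3%. At brc-1 it was replicate 1 that stood higher, 94.2% against 85.9%, since the distal peak fell inside the window there. With 2 replicates, neighbours in this order between chk-1 and brc-1 differed by less than the replicates did at each of these genes. All 10 genes were above the median gene in each of the 3 ranked lists, with a median signal of 117.7 against 12.7 over all genes in the combined list, 45.7 against 9.65 in replicate 1 and 66.9 against 14.4 in replicate 2. The medians over all genes include the genes without a call. Only 51.4% of genes in the combined list, 56.1% in replicate 1 and 54.2% in replicate 2 had one. Standing above the median gene therefore says little more than having a call.

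**Figure D2:**
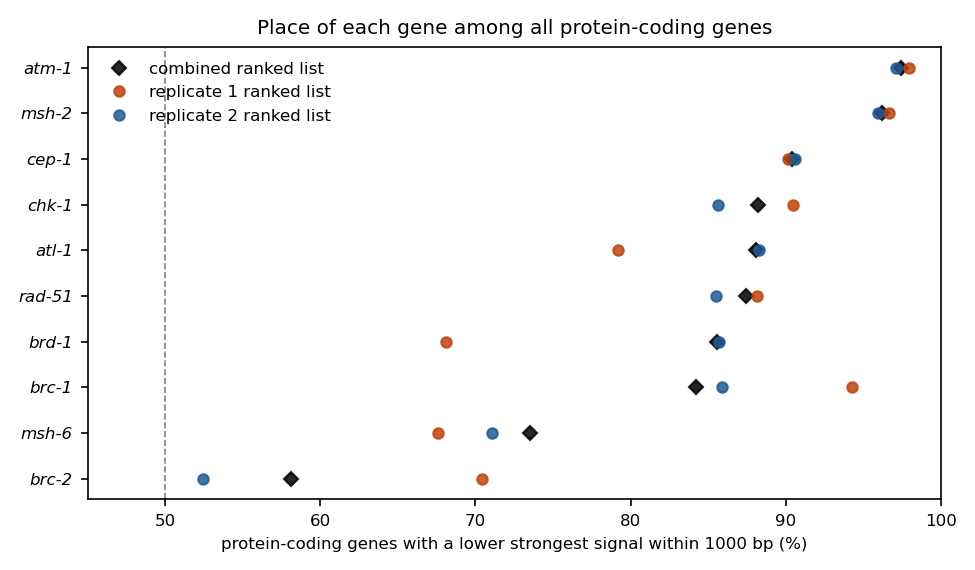
For each gene, the share of protein-coding genes (x axis, %) whose strongest ranked signal within 1000 bp is lower, in the combined list (black diamonds) and in replicate 1 (red) and replicate 2 (blue); the dashed line is the median gene. From atm-1 at 97.4% to brc-2 at 58.1% in the combined list, all points lie above the median gene, and the replicates lie farthest apart at brc-2, brd-1, atl-1 and brc-1. Genes with no ranked call within 1000 bp are included as the lowest.

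Peak shape differed with strength. The stronger peaks, at atm-1, msh-2 and the distal site of brc-1, were 147 to 213 bp wide, whereas those of rad-51, chk-1 and cep-1 had the width of 320 bp that 57.3% of the conservative list shares. Over the whole list 82.6% of peaks in the top 10% by signal were narrower than that and 2.96% of those in the bottom 10% were, so these widths follow the list as a whole. The upstream position of all 5 members' summits also followed the list in direction, since 72.4% of the 3836 pairs of a gene and a conservative summit within 1000 bp had the summit upstream, with a median of 172 bp upstream and quartiles of 398 bp upstream and 44 bp downstream.

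Gene arrangement was a feature that the choice of genes did not use. For 9 of the 10 genes the nearest upstream gene pointed the other way, so that both start from 1 shared stretch, of 264 bp at atl-1 to 2711 bp at rad-51. The exception was msh-6, which follows nefr-1 on the same strand after 151 bp. Over all protein-coding genes 42.1% were divergent, and 20.6% of those had a conservative summit within 1000 bp, against 12.1% of genes that follow a gene on the same strand. At atm-1, cep-1 and msh-2 the partner's 5′ end was also within 1000 bp of the summit, so the peak was counted for both genes. Over all gene and summit pairs, 52.0% had another protein-coding 5′ end, of any orientation, within 1000 bp of the summit. A peak between divergent genes cannot be assigned to either of them from these data. When each summit was given to the gene with the nearest 5′ end alone, rad-51, chk-1 and cep-1 kept theirs, while the peaks of atm-1 and msh-2 went to F56C11.3 and hus-1. That left 3 of 10 genes, against 12.3% of all genes.

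The words searched for in the 201 base windows were of 2 kinds, named elements and words taken from the data, and a match was counted on either strand. TTTGAA and TTCGAA, the core of the element bound by LIN-54, the DNA-binding subunit of the DREAM complex, are in 40.8% and 16.2% of all conservative windows. TTTGAA was in the windows of rad-51 (the nearer one), atm-1 and cep-1, and TTCGAA in those of atl-1, chk-1 and the brc-1 intron. The E2F-type words GCGCGAAA and GCGGGAAA are in 4.84% and 3.97% of windows, and among the members the atl-1 window held the former and none held the latter. GAGAGA, in 18.4% of windows, was found at brc-1, and TATAAA, in 14.8%, at chk-1. The word of 6 bases with the largest excess at conservative summits was GGCGCA, present within 50 bp of 14.1% of summits and in 2.16% of equal windows centred 300 bp to the side. None of the 11 member windows held it, where 17.6% of all conservative windows of 201 bases did. Of the next words by excess, AGGCGC was in 16.6% of all windows, GAGACC in 17.9%, AAGGCG in 17.6% and CGAGAC in 18.1%. The cep-1 window held all of these but AAGGCG. That word was at msh-2, CGAGAC at both rad-51 sites, and GAGACC at the farther rad-51 site. These words overlap one another, AAGGCG with AGGCGC and GGCGCA, and CGAGAC with GAGACC, so a window can hold several through 1 stretch, and any of the 5 was in 40.1% of all conservative windows. Base composition also varied. G and C made up 25.9% of the msh-2 window, the lowest of the 11, against a median of 39.8% over all conservative windows with quartiles of 34.8% and 45.3%, and 35.4% of the genome. Bases that the reference genome marks as masked made up 71.1% of the chk-1 window, 66.2% at atm-1 and 50.25% at msh-2. They made up 18.4% at cep-1 and 10.45% at brd-1. The median over all conservative windows was 30.35%, and 35.7% of the genome is masked. How reads in masked sequence were placed is not given for any of these genes, and its effect was not tested.

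The rest of the repair and checkpoint machinery gives the setting for the 10 genes. Of 88 further genes listed by name and role, 83 were found in the annotation and 37 of these had a conservative summit within 1000 bp, a share of 44.6% beside 50% of the 10 members and 15.8% of all genes. Weighting all genes by the chromosomes on which the genes lie brought the all-gene share to 21.2% for the 10 members and 20.9% for the others, since the share ran from 2.93% on X to 25.9% on III and 23.9% on I. The 37 signals ran from 78.1 to 1584 with a median of 269.1, whereas the 5 members' ran from 113.0 to 548.4 with a median of 165.1. Among the sensors and checkpoint genes 8 of 14 were counted, including hpr-9, hus-1 and mrt-2, which encode the damage clamp, hpr-17, which encodes a subunit of its loader, and clsp-1, the claspin gene that acts with CHK-1. The member kinases atm-1 and chk-1 stood beside these counted genes, while atl-1 did not reach the conservative list. Of the same group clk-2, mus-101, cid-1, wee-1.1, egl-1 and ced-13 had no conservative summit within 1000 bp. The hus-1 peak is the msh-2 peak, so it was counted both among the 5 members and among the 37. Homologous recombination and end trimming had 10 of 25. The highest signals were 1493 at rpa-1 and 1472 at rpa-2, far above rad-51 at 113.0, with summits 528 and 656 bp from the 5′ ends. The lowest, 78.9 at rad-54.B and 98.5 at rmh-2, were below rad-51. The proteins RPA-1 and RPA-2 coat the single strand that RAD-51 later takes over. Mismatch repair beyond msh-2 and msh-6 had 1 of 3, the ligase gene lig-1 at 327.4, while mlh-1 and pms-2 were not counted.

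In the other pathways the counts were 6 of 12 for nucleotide excision and 3 of 10 for base excision and single-strand breaks. Translesion synthesis had 3 of 6 and the SMC5/6 complex 3 of 4. Crosslink repair had 1 of 5, the gene fcd-2, and end joining had 2 of 4, lig-4 and cku-80. The share over all protein-coding genes was 15.8%, or 20.9% weighted by the chromosomes of the 83 genes. Crosslink repair, at 20%, was near that share, and most pathways hold few genes. None of the 10 members was in the top 10% of the conservative list, although atm-1, at 548.4, stood next to its lower limit of 549.2. In that top share were smc-6, rpa-1, rpa-2, clsp-1, polk-1, xpf-1, uvs-1 and xpa-1, at 585.0 to 1584. As at atm-1 and msh-2, some of these peaks lay nearer to another gene, namely those of smc-6 (345 bp from pcs-1), rpa-1 (300 bp from F18A1.7), clsp-1 (23 bp from eef-2) and xpf-1 (302 bp from tars-1). Divergent arrangement was less frequent among the 83 genes than among the members, 40 of 83. Of these 40, 28 were counted, beside 20.6% of all divergent protein-coding genes. Of the 38 that follow a gene on the same strand, 9 were counted, beside 12.1% of all such genes. By strongest ranked signal the members' median place was above 87.8% of genes in the combined list and that of the other repair genes above 82.0%, with 78 of 83 above the median gene. The number of the 83 with any combined ranked call was also 78.

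**Figure D3:**
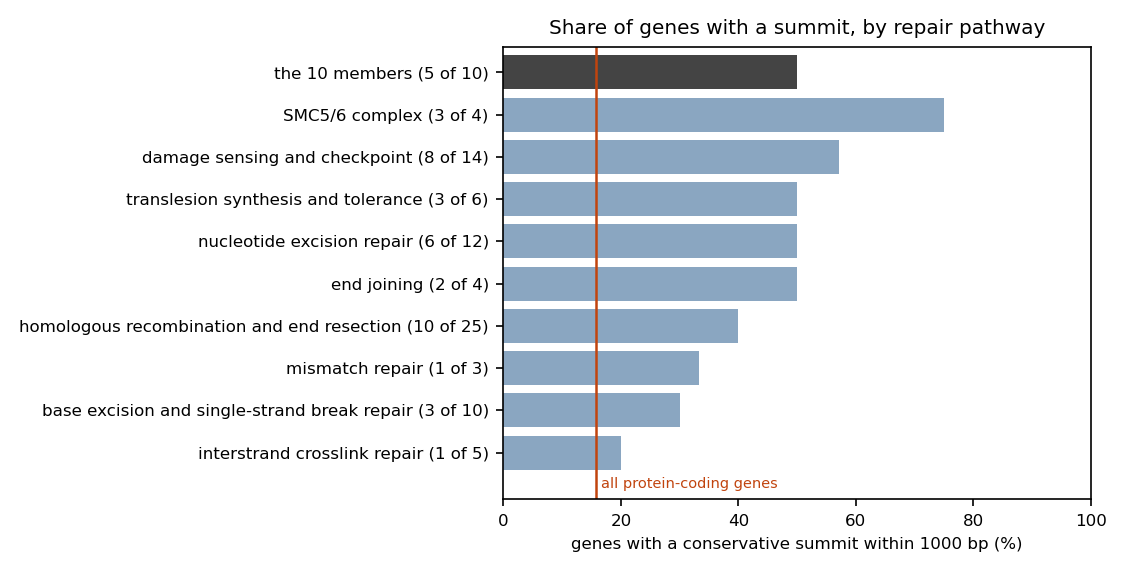
Share of genes (x axis, %) with a conservative summit within 1000 bp of the 5′ end for the 10 members (dark bar) and for other repair and checkpoint genes by role (light bars), with the number counted of the number in the annotation; the red line is the share over all protein-coding genes, 15.8%. The members' 5 of 10 lies within the range of the other roles, from 1 of 5 to 3 of 4, and most roles hold few genes.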

How the data were processed

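Samples were 2 biological replicates of 1 group. The 8 peak lists are on ce11, which is WBcel235. For each peak the authors deposited a score and a signal. The lists have no header, so both columns and the summit were read from the narrowPeak column order, and the score was taken as a scaled irreproducible discovery rate from the list types named in the deposited text and from its range. Calls were made against 1 control library shared by both replicates. The aligner, caller and settings, and a further input used in thresholding, are items not given in the sources used here. Files give no read counts, so depth is unknown.

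From these lists, summits (1-based) were set against 5′ ends of Ensembl release 115 genes, the outermost annotated end, with Python 3.11.15, pandas 2.3.3 and numpy 2.4.6. Trans-splicing is frequent in this species, so that end need not be where transcription starts. Sequences are from the RefSeq genome of WBcel235. With the Ensembl coordinates, 31786 of 31853 coding transcripts begin with ATG in it. The ranked list behind the conservative one was found by matching all 4384 peaks. Per combined ranked list 10 columns were not used.

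The members and lists were chosen with earlier results of these data known, so shares are set beside those of all genes with no test. All members are named, with the neighbours that share their peaks, the genes of the longer list whose signal is in the top 10%, and those that a small count needs; other examples from the longer list were named after their values were seen. For 5 of its 88 names no annotated gene matched. The counting was tested on simulated data. Alternatives covered window, overlap, transcript ends, nearest gene, list and replicate; the words beyond the first by excess were added after seeing the data.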

Additional observations from a re-analysis of the deposited data

How the results depend on the processing

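Of the 10 genes, 5 had a conservative summit within 1000 bp. That became 1 gene (cep-1) within 250 bp, against 8.14% of all genes, 3 with each summit given to its nearest gene (12.3%), 3 in the stronger part of the conservative list (2192 peaks, 10.3%) and 8 in the less strict list (17.3%). The replicates' own lists gave 5 in replicate 1 (11.4%) and 8 in replicate 2 (16.5%). Calls of cep-1, brc-2 and msh-6 were the same in all 9 alternatives, and each other gene's call changed in at least 1. At chk-1 the call was lost with replicate 1 alone, and at atl-1 and brd-1 it was gained with replicate 2 alone. The number called in both replicates was 5 in the thresholded lists, against 10.7% of all genes. It was 4 within 500 bp, and 4 when both replicates' peaks had to overlap the conservative peak. That number rose to 10 in the ranked lists, where 56.1% of all genes in replicate 1 and 54.2% in replicate 2 had a call. For these 3 alternatives the share of all genes called in both replicates was not taken. The median rank of the members' peaks was 44.9% down the conservative list, over 5 genes. In the replicates' own lists it was 38.1% over 5 genes in replicate 1 and 64.2% over 8 in replicate 2. These are not the same genes, since brc-1 entered in both replicates and chk-1 was absent from replicate 1. The other 83 genes went from 37 to 21 within 250 bp and to 23 by nearest gene (30 to 37 in the replicates), and all protein-coding genes from 3158 to 1625 within 250 bp and 2059 in the stronger part (2279 to 3299 in the replicates).

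No paired analysis was possible because there was 1 group. Without read counts, the depth behind each peak is unknown, and a missing peak cannot be told from a shallow library. Without an untagged strain analysed here, signal that does not depend on MADF-6 was not measured. The causes of the changes were not tested.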
